A study of Mus musculus with 31 samples.

Results

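The genes described here encode subunits of respiratory complex I. They are all gene symbols of the deposited count files that begin with Nduf, continue with the letter a, b, c, s or v and a number, and are not assembly factors. A count of 10 or more in 3 or more of the 31 libraries was also required. Of 37 symbols with such a name, 36 met the count rule, among 15526 genes that met it in the whole series. Each of the 36 genes had at least 10 counts in all 31 libraries, and the lowest count of any of them was 99, for Ndufb4. The 1 symbol left out was Ndufs5, which the files list at 0 in every library. No gene lay near the count threshold on either side.

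The libraries are bulk RNA-seq of masseter muscle (MM) from adult male C57BL/6J mice of 2 to 4 months, 1 library per mouse, and MM was dissected with its deep, middle and superficial parts. The left MM had been injected with complete Freund's adjuvant (CFA) mixed with PBS, a model of inflammation, with collagenase type 2 (Col), a model of damage to the extracellular matrix, or with PBS as vehicle. In the CFA experiment, 3 mice were sampled at 1d, 3 at 5d and 3 after vehicle. In the Col experiment, 0.2U was given to 4 mice of the group labelled 1C and 4 mice of the group labelled RPC. The dose of 10U was given to 4, 3 and 4 mice, labelled 2d, 6d and 12d, and 3 mice received vehicle. The text of the study has days 1 and 14 where the labels have 2d and 12d, and the labels are used here. The day of the 1C and RPC groups and of both vehicle groups is not given by the labels. All groups share strain and sex, and no genotype differs between them. P-values given here measure the spread between the mice of a group.

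Complex I, NADH:ubiquinone oxidoreductase, is the entry point of the respiratory chain. It takes electrons from NADH, passes them to ubiquinone and pumps protons across the inner mitochondrial membrane. Its arms are assembled from modules: the N module oxidizes NADH, the Q module reduces ubiquinone, and the proximal and distal P modules lie in the membrane. The catalytic core consists of nuclear encoded subunits and of subunits encoded by mitochondrial DNA, and the remaining accessory subunits are needed for assembly and stability. Muscle fibres, above all oxidative ones, are rich in these proteins. By these modules, 10 of the genes belong to the N module, 6 to the Q module, 8 to the proximal P module and 10 to the distal P module. The other two are Ndufa4, whose product has been reassigned to complex IV, and its paralog Ndufa4l2, known as a gene induced by hypoxia. There are 7 nuclear core subunits, among them Ndufv1, Ndufv2, Ndufs1, Ndufs3, Ndufs7 and Ndufs8. Subunits encoded by mitochondrial DNA were not analysed here, and the carrier protein gene Ndufab1 does not match the name rule.

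Promoter sequences of RefSeq (build GRCm38.p6, 250 bases before to 50 bases after the start) were given for 31 of the 36 genes. Genes not in the table include Ndufa2, Ndufa4l2, Ndufb9 and Ndufs1. Since most of these genes moved together between mice, short motifs of factors known to act on nuclear genes of mitochondria were searched on both strands. The core motif of nuclear respiratory factor 1 (NRF1), TGCGCATGC, was found in 2 of the 31 promoters (6.45%) and in 1.72% of 27025 genes with a promoter of the same length. The shorter motif TGCGCA, which lies within the core motif and reads the same on both strands, was found in 9 of 31 (29%) and in 8.79% of all genes. The ETS motif CCGGAAGT, read by GABPA, was found in 1 of 31 (3.23%), against 4.31% of all genes. The motif of estrogen-related receptors, TCAAGGTCA, was found in none, against 0.466% of all genes. These counts describe letters in a window and show no binding. Stretches upstream of the start are printed for Ndufa6, which holds the NRF1 core motif, for Ndufb4, the gene with the largest change at 6d post-Col (10U), and for Ndufa9, a subunit also called lower there, with matches in capitals and the sequence read in the direction of the gene.
Ndufa6, minus strand of chr15:82354306-82354434: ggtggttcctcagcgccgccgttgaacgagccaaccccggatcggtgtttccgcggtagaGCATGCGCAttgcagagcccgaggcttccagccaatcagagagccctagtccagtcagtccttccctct
Ndufb4, minus strand of chr16:37654495-37654618: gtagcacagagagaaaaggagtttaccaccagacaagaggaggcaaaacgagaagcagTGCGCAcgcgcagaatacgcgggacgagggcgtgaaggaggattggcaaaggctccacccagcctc
Ndufa9, minus strand of chr6:126849145-126849260: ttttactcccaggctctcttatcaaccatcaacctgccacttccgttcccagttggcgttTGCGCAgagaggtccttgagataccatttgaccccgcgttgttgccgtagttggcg

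Each library held between 14843778 and 29076671 reads assigned to genes (median 20834472). Among the 4 libraries at 2d post-Col (10U), replicate 4 was the deepest with 27573542 counts and stood apart in the results below. The 11 libraries of the 10U groups had 0.559 to 0.703% of counted reads marked as ambiguous between genes, and the other 20 libraries had 0.125 to 0.259%. Whether all libraries were counted with 1 setting is not given in the sources used here, so each comparison of a 10U group with vehicle carries this difference. The comparisons among 10U groups do not carry it. Of the 36 genes, 9 have exons that overlap exons of a gene on the opposite strand, and the median change of the other 27 is given below. Transcripts of salivary gland, which lies next to MM, summed over 9 marker genes to 30.1 to 122554 CPM (counts scaled to library size) in the vehicle group for Col, and to 1.02 to 2.96 CPM at 6d post-Col (10U). Its part in the results was not tested.

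CPM scaled by TMM, a method that sets libraries on 1 scale, are given for single mice, and RPKM, which divides by exon length, is given where levels of different genes are compared. A gene was called when the quasi-likelihood test of edgeR gave it a Benjamini-Hochberg adjusted p under 0.05, with the adjustment made over all genes tested. In the vehicle group for Col, Ndufa4 had the highest mean level of the 36 genes, 1136 RPKM. The next was Ndufb9, an accessory subunit of the distal P module, with 750 RPKM. At the lower end were Ndufb4 with 17.0 RPKM, Ndufb2 with 22.5 RPKM and Ndufa4l2 with 23.6 RPKM. The place of Ndufb2 rests on its exon length of 5628 bases, as its mean was 127 CPM, against 19.9 CPM for Ndufb4 and 22.7 CPM for Ndufa4l2. Levels of genes with processed copies in the genome are uncertain, as reads that aligned to more than 1 place were not counted. Among 50-base windows of the longest coding transcript, 83.5% also matched another place of mm9 for Ndufs3, 65.6% for Ndufa7 and 56.9% for Ndufb11, at up to 2 mismatches. This share was 46.3% for Ndufb4 and 61.5% for Ndufs5, and it was 0 for 14 of the 36 genes.

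The vehicle-treated mice set the spread against which all groups were read, and they were not alike. A summary over the 34 subunit genes, without Ndufa4 and Ndufa4l2, was taken as the median ratio to the mean of the own vehicle group. Mice of the vehicle group for Col were at 122, 127 and 65.8% of their own mean, and mice of the vehicle group for CFA at 106, 131 and 71.2%. Replicate 3 was thus the lowest mouse in both vehicle groups. Sarcomere genes moved with it, as replicate 3 had the lowest summed level of 22 sarcomere genes in both groups, 132454 against 192935 and 197801 CPM in the Col experiment. When both vehicle groups were compared directly, the values of 22 of the 36 genes were below and of 14 above those of the CFA experiment, and the median log2 difference was -0.061. In this comparison 0 genes of the set were called in either direction by edgeR, with 0 at an unadjusted p under 0.05 and 0 called by DESeq2, beside 0% of all genes called lower and 0.0426% called higher.

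**Figure D1:**
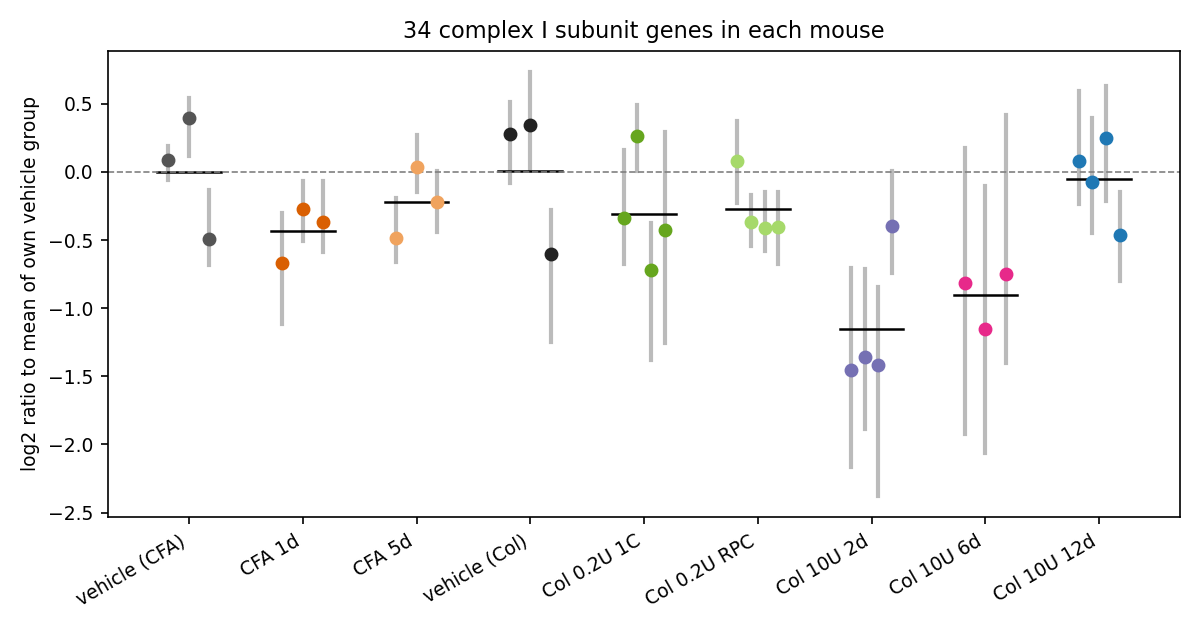
Median log2 ratio of 34 complex I subunit genes to the mean of the own vehicle group in each of 31 mice (points), with the range over the 34 genes (grey lines) and the mean of each group (black lines). Replicates 1, 2 and 3 at 2d post-Col (10U) and all 3 mice at 6d lie below every vehicle-treated mouse, and replicate 4 at 2d lies at -0.40. Ratios use TMM, and group medians turn above 0 after 10U Col under scaling to sarcomere genes.

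CFA was followed by values below vehicle for all genes of the set, and none passed the test. In bulk tissue, fewer muscle fibres and less RNA of these genes per fibre cannot be told apart, here and in all results that follow. At 1d post-CFA, 36 of 36 genes were below the vehicle group. The median of their log2 fold changes was -0.46, next to -0.014 over every gene tested, and values ran from -0.61 for Ndufb9 to -0.27 for Ndufa4l2. With edgeR 0 were called lower and 0 higher, with 0 at an unadjusted p under 0.05 and 0 called by DESeq2, and 0% of all 13944 genes were called lower and 0% higher. The smallest p belonged to Ndufb2, an accessory subunit of the membrane arm. It had 68.0, 84.8 and 103 CPM at 1d post-CFA and 126, 147 and 95.4 CPM after vehicle, with overlap (log2 fold change -0.52, SE 0.24, edgeR adjusted p = 0.924). Ndufa4 had 392, 453 and 476 CPM at 1d and 642, 663 and 414 CPM after vehicle (log2 fold change -0.38, SE 0.25, edgeR adjusted p = 0.924). Ndufa4l2 had 16.3, 24.0 and 15.3 CPM at 1d and 20.0, 31.8 and 15.6 CPM after vehicle (log2 fold change -0.27, SE 0.30, edgeR adjusted p = 0.94). In both genes the groups overlapped, and they did not for 1 of the 36 genes, Ndufb3, beside 2.76% of all genes that were lower without overlap. The summed level of sarcomere genes was 135746 to 175468 CPM at 1d and 118350 to 247834 CPM in the vehicle group, and the 8 adipocyte markers had a median of -1.86 on the log2 scale. Whether either list has a part in the lower values was not tested. Left-out mice moved the median from -0.64 without vehicle replicate 3 to -0.28 without vehicle replicate 2, and scaling to sarcomere genes moved it to -0.082, with 29 of 36 genes below vehicle.

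At 5d post-CFA 36 of 36 genes were again below the vehicle group, at a median of -0.16 on the log2 scale, next to -0.020 over every gene tested. Neither direction held a called gene in edgeR (0 lower and 0 higher, 0 at an unadjusted p under 0.05, 0 by DESeq2), beside 0.0428% of all 14026 genes called lower and 1.06% called higher. Ndufv1, the core subunit that binds NADH, had the smallest p. Its values were 354, 510 and 403 CPM at 5d and 580, 731 and 391 CPM in the vehicle group, and the groups overlapped (log2 fold change -0.34, SE 0.26, edgeR adjusted p = 0.644). Ndufa4 had 395, 601 and 458 CPM at 5d (log2 fold change -0.17, SE 0.25, edgeR adjusted p = 0.833) and Ndufa4l2 had 20.6, 18.5 and 18.8 CPM (log2 fold change -0.14, SE 0.24, edgeR adjusted p = 0.864). Ndufs1, a core subunit, was the 1 gene whose groups did not overlap, beside 7.96% of all genes. The 9 salivary gland markers were all above vehicle at 5d, with a median of 4.38 on the log2 scale, and summed to 93728 to 138600 CPM against 26.8 to 10818 CPM in the vehicle group. The sarcomere genes had a median of -0.22, and the part of either list in the values was not tested. The direction was not stable. Without 1 mouse the median ran from -0.34 (without vehicle replicate 3) to 0.024 (without vehicle replicate 2), and scaling to sarcomere genes turned it to 0.039, with 28 genes above vehicle and 8 below.

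After the low dose of Col the genes were below vehicle under TMM, without passing the test, and mostly above it under scaling to sarcomere genes. In the 1C group 36 of 36 genes were below vehicle, at a median of -0.33 on the log2 scale, and in the RPC group 36 of 36 at -0.29. Over every gene tested the medians were 0.0082 and 0.014. No gene of the set was called (0 lower and 0 higher in both groups by edgeR and 0 by DESeq2). At an unadjusted p under 0.05 there were 0 and 1 genes of the set, beside 1819 of 14493 and 1923 of 14269 genes tested. Of all genes 0% were called lower and 0% higher in the 1C group, and 0% and 0% in the RPC group. In 0 of the 36 genes the groups were free of overlap, beside 5.41% of all genes in the 1C group and 8.02% in the RPC group. The gene with the smallest p in the 1C group was Ndufa13, a membrane arm subunit also known as GRIM-19. It had 196, 308, 180 and 224 CPM in the 1C group and 333, 376 and 200 CPM in the vehicle group (log2 fold change -0.41, SE 0.27, edgeR adjusted p = 0.541). Ndufa4 had 400, 680, 224 and 275 CPM in the 1C group (log2 fold change -0.50, SE 0.45, edgeR adjusted p = 0.649) and Ndufa4l2 had 11.8, 24.2, 16.6 and 21.7 CPM (log2 fold change -0.28, SE 0.27, edgeR adjusted p = 0.672). In both genes 2 of the 4 mice were below the lowest vehicle-treated mouse and the others were within the range of the vehicle group. In the RPC group the smallest p was that of Ndufa4l2, with 18.8, 12.3, 9.26 and 11.6 CPM against 29.5, 20.3 and 18.2 CPM in the vehicle group. All but replicate 1 of the RPC mice were below the lowest vehicle-treated mouse (log2 fold change -0.75, SE 0.27, edgeR adjusted p = 0.317). Ndufa4 had 465, 360, 380 and 402 CPM in the RPC group, within the range of the vehicle group (log2 fold change -0.42, SE 0.30, edgeR adjusted p = 0.549). Left-out mice moved the median from -0.58 to -0.13 in the 1C group and from -0.50 to -0.094 in the RPC group, in both cases without vehicle replicate 3 and without vehicle replicate 2.

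Other lists also had medians away from 0 in both low dose groups, with 0 genes of the lists named here called by edgeR. The sarcomere genes had a median of -0.48 on the log2 scale in the 1C group and -0.68 in the RPC group. Their summed level was 100615 to 143895 CPM in the 1C group and 93071 to 126501 CPM in the RPC group, against 132454 to 197801 CPM in the vehicle group, so that every RPC mouse was below every vehicle-treated mouse. Under scaling to sarcomere genes the median of the complex I genes turned to 0.21 in the 1C group and 0.39 in the RPC group, with 35 of 36 genes above vehicle in each. The 4 brown adipocyte markers summed to 13.3 to 795 CPM in the 1C group and 64.1 to 175 CPM in the RPC group, against 1.87 to 6.48 CPM in the vehicle group. The 8 adipocyte markers had a median of 1.18 in the 1C group and 1.19 in the RPC group, with 7 and 8 of 8 above vehicle. Salivary gland markers summed to 60.3 to 28341 CPM in the 1C group and 20212 to 200254 CPM in the RPC group, against 30.1 to 122554 CPM in the vehicle group. The part of these lists in the values was not tested.

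The high dose of Col gave the largest median differences of the set under TMM, and their direction turned when libraries were scaled to sarcomere genes, as given below. At 2d post-Col (10U), 35 of 36 genes were below the vehicle group. The median was -1.13 on the log2 scale, or 45.8% of vehicle, next to 0.022 over every gene tested. The adjusted p of edgeR did not pass for any of them, with 0 called lower and 0 higher and the smallest adjusted p 0.0532, beside 1.08% of 14373 genes called lower and 1.14% called higher. At an unadjusted p under 0.05 there were 34 genes of the set, beside 4781 of the 14373 genes. DESeq2 called 27 genes of the set lower, beside 11.4% of all genes that DESeq2 called lower. For 9 of the 36 genes all 2d mice were below all vehicle-treated mice, beside 13.2% of all genes. The number of genes called by edgeR at 2d depended on single mice. The median stayed between -1.46 and -0.997 when 1 mouse was left out. In replicates 1, 2 and 3 the 34 subunit genes were at 36.5, 39.1 and 37.5% of vehicle, and in replicate 4 at 76.0%. Without replicate 4, edgeR called 35 genes of the set lower, beside 18.4% of all genes in that fit, and without vehicle replicate 3 it called 3, beside 1.4% of all genes.

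Ndufv3, a small subunit of the NADH oxidizing arm, had the smallest p. It was measured at 39.0, 47.8, 48.4 and 73.4 CPM at 2d and 133, 149 and 90.9 CPM in the vehicle group. Every 2d mouse was below every vehicle-treated mouse (log2 fold change -1.22, SE 0.27, edgeR adjusted p = 0.0532). Ndufa4 had 154, 168, 155 and 409 CPM at 2d and 666, 731 and 280 CPM in the vehicle group, and replicate 4 was above the lowest vehicle-treated mouse (log2 fold change -1.30, SE 0.47, edgeR adjusted p = 0.107). The Q module had the lowest median of the modules, -1.31, next to -1.10 in the N module, -1.01 in the proximal P module and -1.19 in the distal P module. The lowest single value was that of Ndufc1, a subunit of the proximal membrane arm, with -1.60 (SE 0.58, edgeR adjusted p = 0.104).

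Ndufa4l2 was the 1 gene that was not below vehicle at 2d. It had 20.3, 24.6, 33.8 and 17.5 CPM at 2d and 29.5, 20.3 and 18.2 CPM in the vehicle group, and the groups overlapped throughout (log2 fold change 0.11, SE 0.27, edgeR adjusted p = 0.803). The sign of this value turned when replicate 3 of the 2d group or vehicle replicate 2 or 3 was left out. The 7 genes of a hypoxia list, among them Vegfa and Slc2a1, had a median of 1.34 on the log2 scale at 2d, and 0 of the 7 were called by edgeR.

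Whether the 2d values after 10U Col differed from those at 1d post-CFA was tested as an interaction. The difference of the log2 fold changes was below 0 for 35 of 36 genes, with a median of -0.72. It was called for 0 of the 36 genes by edgeR, with 0 at an unadjusted p under 0.05 and adjusted p from 0.73 to 0.914, beside 0.0946% of 14794 genes. A larger fall after 10U Col than after CFA was therefore not shown by this test.

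At 6d post-Col (10U) the fall passed the test for 19 genes under TMM and for 0 under scaling to sarcomere genes. Under that scaling 2.11% of all genes were called lower. All but Ndufb3 of the 36 genes were below vehicle. The median was -0.97 on the log2 scale, or 50.9% of vehicle, next to 0.0056 over every gene tested. By edgeR 19 were called lower and 0 higher, beside 13.3% of 14281 genes called lower and 14% called higher. Of the 19, 12 also fell more than 2-fold at over 1 RPKM. DESeq2 called 28 genes of the set lower, beside 18.5% of all genes. For 21 of the 36 genes all 6d mice were below all vehicle-treated mice, beside 21.9% of all genes. The median of the 27 genes without an opposite exon was also -0.97. The count depended on single mice. It was 32 without vehicle replicate 3, 7 without vehicle replicate 2 and 1 without vehicle replicate 1, beside 20%, 9.13% and 7.06% of all genes called lower in the same fits. It was 0, 0 and 4 without the 6d replicates 1, 2 and 3, beside 2.68%, 2.44% and 6.2% of all genes. The median stayed between -1.23 and -0.81 in these fits.

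The largest fall was that of Ndufb4, an accessory subunit of the distal membrane arm (mm9 chromosome 16, 37647256 to 37654539, minus strand). It was measured at 4.49, 4.03 and 6.64 CPM at 6d and 25.2, 24.6 and 9.96 CPM in the vehicle group, so that the groups did not overlap (log2 fold change -1.97, SE 0.38, edgeR adjusted p = 0.013). Ndufs7, a core subunit that carries the last iron-sulfur cluster before ubiquinone (mm9 chromosome 10, 79711866 to 79719539, plus strand), came next. Its values were 107, 64.5 and 110 CPM at 6d and 344, 360 and 155 CPM in the vehicle group, again without overlap (log2 fold change -1.60, SE 0.36, edgeR adjusted p = 0.0191). The third was Ndufc1 (mm9 chromosome 3, 51208599 to 51212910, minus strand). It had 36.3, 30.3 and 41.8 CPM at 6d and 130, 152 and 38.1 CPM in the vehicle group, where replicate 3 was below 1 of the 6d mice (log2 fold change -1.55, SE 0.45, edgeR adjusted p = 0.0392). Ndufa4 fell likewise, with 199, 156 and 225 CPM at 6d against 666, 731 and 280 CPM (log2 fold change -1.52, SE 0.37, edgeR adjusted p = 0.0234). Its paralog Ndufa4l2 had 18.8, 15.7 and 17.4 CPM at 6d and was not called (log2 fold change -0.39, SE 0.21, edgeR adjusted p = 0.197).

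**Figure D2:**
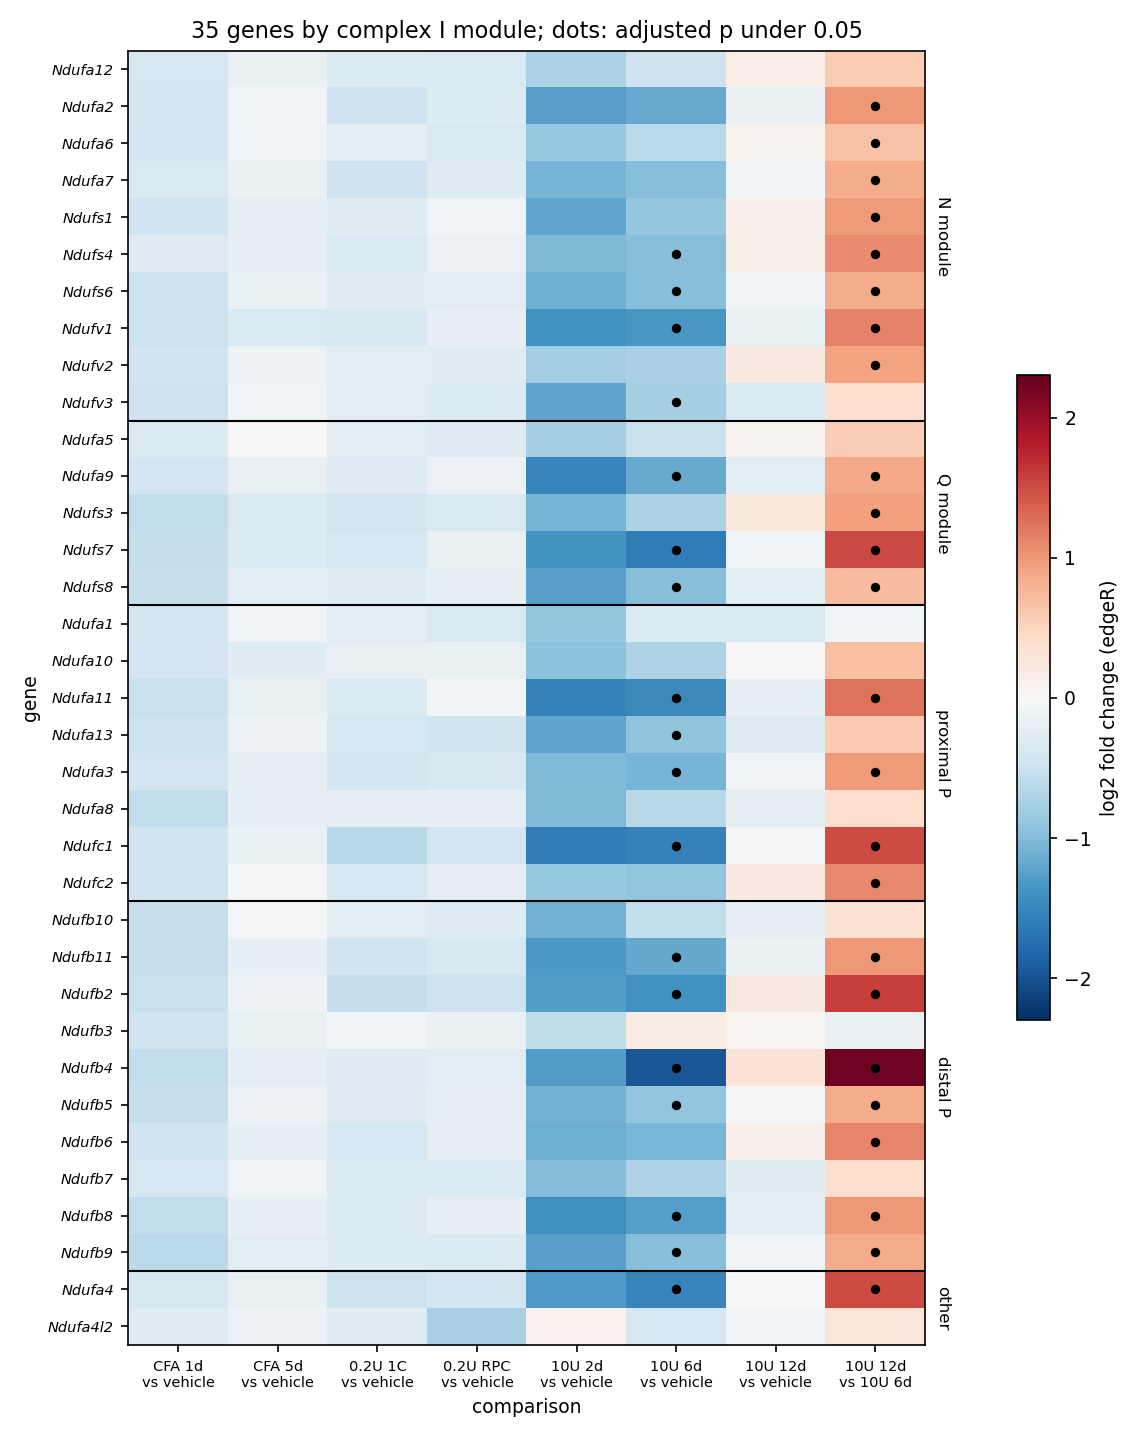
Log2 fold changes by edgeR of 35 of the 36 genes (rows, by module, with Ndufa4 and Ndufa4l2 last) in 8 comparisons (columns), with dots at adjusted p under 0.05. Dots stand in 18 of these rows at 6d post-Col (10U) against vehicle and in 24 at 12d against 6d, and in none of the other 6 columns. Under scaling to sarcomere genes 0 of these genes are called in these directions at 6d against vehicle or at 12d against 6d, beside 2.11% and 0% of all genes.

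Under scaling to sarcomere genes 0 genes of the set were called lower at 6d. Under TMM the called genes came from every module, beside 13.3% of all genes called lower. In the N module 4 of 10 were called lower at 6d, in the Q module 4 of 6, in the proximal P module 4 of 8 and in the distal P module 6 of 10, and 4 of the 7 core subunits were among them. Core subunits called included Ndufv1 (log2 fold change -1.35), Ndufs7 and Ndufs8 (-0.97). Ndufv1 had 196, 149 and 227 CPM at 6d against 652, 509 and 304 CPM in the vehicle group, without overlap. The core subunits not called were Ndufs1 (-0.89), Ndufv2 (-0.75) and Ndufs3 (-0.73), and Ndufs1 had an edgeR adjusted p of 0.0505, just outside the threshold. Further genes called lower were Ndufa11 (-1.48), Ndufb2 (-1.40), Ndufb8 (-1.27), Ndufb11 (-1.17), Ndufa9 (-1.15), Ndufa3 (-1.07), Ndufs4 (-0.98), Ndufb9 (-0.98), Ndufs6 (-0.97), Ndufa13 (-0.93), Ndufb5 (-0.92) and Ndufv3 (-0.77), all log2 fold changes. Ndufs4 and Ndufs6 are accessory subunits of the matrix arm, and the products of the Ndufb genes lie in the membrane arm. Beside the genes named in this or the next paragraph and Ndufa4l2, 11 genes were not called, with values from -1.17 for Ndufa2 to -0.47 for Ndufa12.

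Ndufb3 and Ndufa1, both small subunits of the membrane arm, had the highest log2 fold changes of the set at 6d. The next was Ndufa4l2 with -0.39. Ndufb3 had 73.8, 60.8 and 87.5 CPM at 6d against 70.6, 74.2 and 53.3 CPM in the vehicle group (log2 fold change 0.17, SE 0.20, edgeR adjusted p = 0.537). Ndufa1 had 96.1, 77.9 and 110 CPM against 123, 150 and 81.0 CPM (log2 fold change -0.32, SE 0.25, edgeR adjusted p = 0.356). At 2d their log2 fold changes were -0.58 and -0.90. From 2d to 6d they were the 2 genes of the set with an unadjusted p under 0.05 (log2 fold changes 0.75 and 0.58, edgeR adjusted p = 0.0662 and 0.0604). Ndufb10 followed with a log2 fold change of 0.53 (edgeR adjusted p = 0.323). Their transcripts matched other places of the genome in 46.6% and 19.7% of windows. These genes were picked out after their values were seen.

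**Figure D3:**
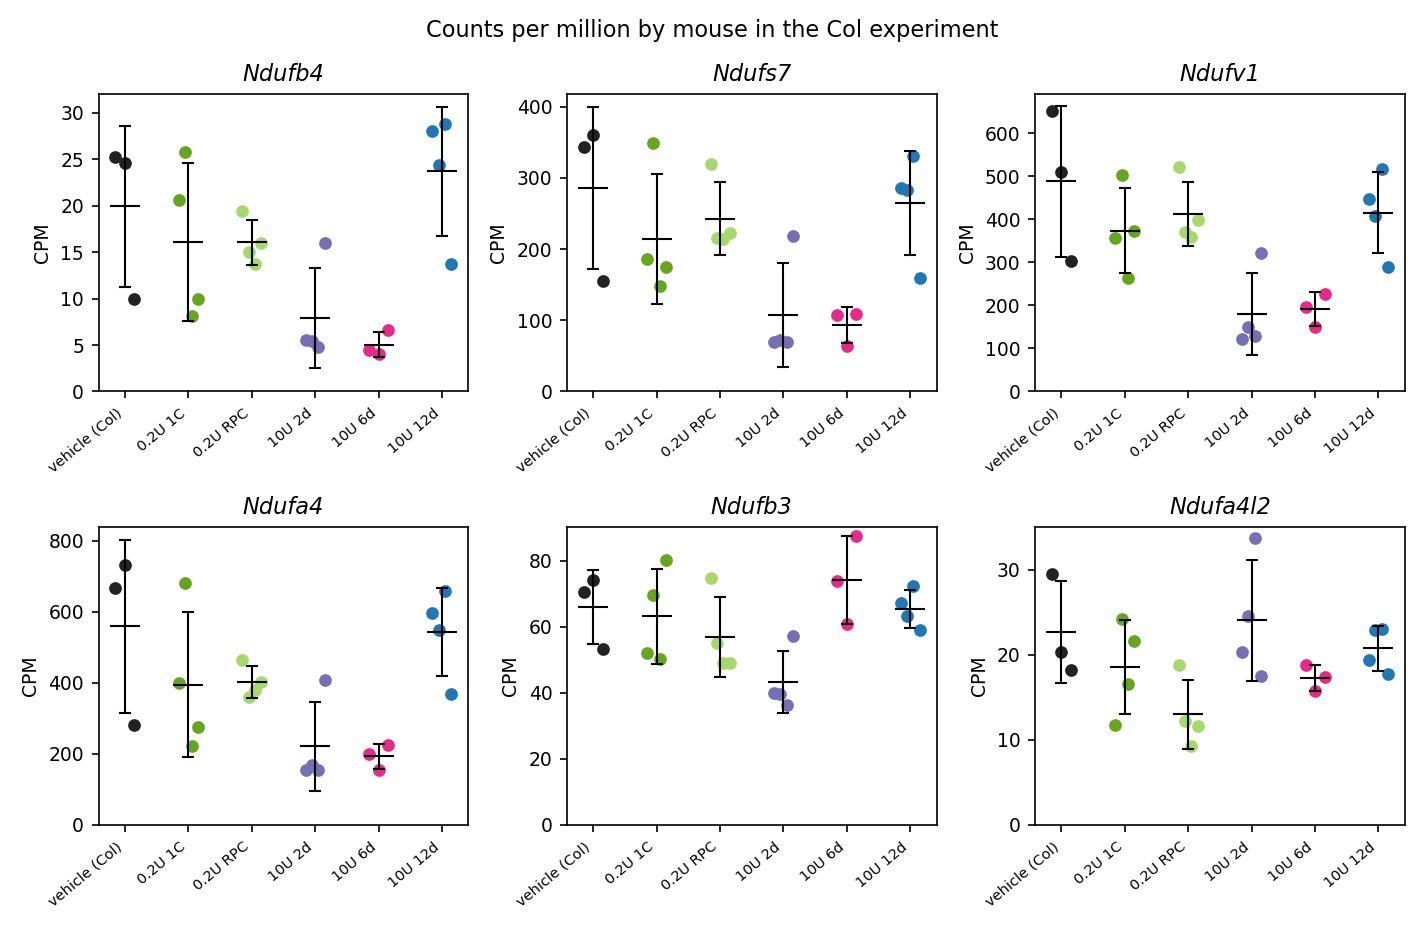
CPM of 6 genes in each mouse of the Col experiment (points), with the mean and SD of the group (black), on axes that start at 0. Ndufb4, Ndufs7, Ndufv1 and Ndufa4 are low in 3 of 4 mice at 2d and all 3 mice at 6d and overlap the vehicle group at 12d, while Ndufa4l2 overlaps it at 2d and Ndufb3 at 6d.

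Between 2d and 6d no gene of the set passed the test. Values of 29 genes were above and of 7 below those at 2d, at a median of 0.16 on the log2 scale, next to -0.036 over every gene tested. By edgeR 0 were called lower and 0 higher, beside 4.05% of 14513 genes called lower and 4.68% called higher. The unadjusted p was under 0.05 for the pair named above, beside 3858 of the 14513 genes. DESeq2 called 2 genes of the set higher, beside 8.84% of all genes. Without replicate 4 of the 2d group, 21 genes were called higher and 1 lower, with a median of 0.51, beside 14% of all genes called higher and 14.8% called lower in that fit. Scaling to sarcomere genes turned the median to -0.22, with 31 genes below and 5 above and 0 called.

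At 12d post-Col (10U) the genes lay on both sides of vehicle under TMM. Here 22 were below and 14 above vehicle, at a median of -0.066 on the log2 scale, next to 0.0072 over every gene tested. By edgeR 0 were called lower and 0 higher (0 at an unadjusted p under 0.05, 0 by DESeq2), beside 0.466% of 14176 genes called lower and 0.762% called higher. In 0 genes were all 12d mice below all vehicle-treated mice, beside 8.51% of all genes. Ndufv3 had the smallest p, with 103, 96.7, 105 and 70.2 CPM at 12d against 133, 149 and 90.9 CPM (log2 fold change -0.36, SE 0.20, edgeR adjusted p = 0.407). Ndufa4 was at 596, 549, 658 and 369 CPM (log2 fold change 0.012, SE 0.34, edgeR adjusted p = 0.991). Ndufa4l2 was at 19.4, 22.9, 23.0 and 17.8 CPM (log2 fold change -0.073, SE 0.18, edgeR adjusted p = 0.866). Replicate 4 was the lowest of the 12d mice, with the 34 subunit genes at 72.4% of vehicle. Without 1 mouse the median ran from -0.32 (without vehicle replicate 3) to 0.13 (without vehicle replicate 2), and scaling to sarcomere genes turned it to 0.38, with 36 of 36 genes above vehicle and 0 called.

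The rise from 6d to 12d held the most calls, 0 of which were left under scaling to sarcomere genes. Under that scaling 0% of all genes were called higher and 0.0209% lower. Values of 34 of the 36 genes were above those at 6d, at a median of 0.90 on the log2 scale. Over every gene tested the median was 0.0025. By edgeR 25 were called higher and 0 lower, beside 13.4% of 14344 genes called higher and 13% called lower, and DESeq2 called 28 higher, beside 19.7% of all genes. Of the 25, 12 rose more than 2-fold at over 1 RPKM. The median of the 27 genes without an opposite exon was 0.86. The count of called genes was 2 without 6d replicate 2, beside 0.722% of all genes, and 31 without 12d replicate 4, beside 25% of all genes. It was between 10 and 23 without any other mouse, beside 3.21 to 6.93% of all genes. The 6d mice enter both this comparison and the one with vehicle.

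All 7 nuclear core subunits were called higher at 12d than at 6d. Ndufv1 rose from 196, 149 and 227 CPM at 6d to 447, 409, 517 and 290 CPM at 12d (log2 fold change 1.14, SE 0.25, edgeR adjusted p = 0.0202). Ndufv2, which carries an iron-sulfur cluster beside Ndufv1, rose from 233, 162 and 256 CPM to 435, 391, 496 and 307 CPM. For both genes every 12d mouse was above every 6d mouse. Ndufs1, the largest subunit of the NADH oxidizing arm, rose likewise, from 308, 210 and 360 CPM to 606, 538, 705 and 433 CPM. Ndufs3, a scaffold of the Q module, rose from 51.8, 38.7 and 66.8 CPM to 115, 94.4, 122 and 69.9 CPM, the lowest 12d mouse being close to the highest 6d mouse. Ndufs7 showed the largest change of the core genes, from 107, 64.5 and 110 CPM to 286, 283, 331 and 160 CPM (log2 fold change 1.51, SE 0.30, edgeR adjusted p = 0.0172). Ndufs8, another carrier of iron-sulfur clusters, had the smallest, from 95.1, 74.0 and 102 CPM to 152, 137, 174 and 120 CPM (log2 fold change 0.71, SE 0.18, edgeR adjusted p = 0.0291). No core subunit had overlapping groups in this comparison, beside 2460 of 14344 genes that were higher without overlap.

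Of the accessory genes, Ndufb4 rose the most, by 2.25 on the log2 scale (SE 0.31, edgeR adjusted p = 0.00892), to between 13.7 and 28.8 CPM in the 4 mice at 12d. Ndufb2 rose by 1.58 and Ndufa4 by 1.51. By module 8 of 10 genes of the N module, 5 of 6 of the Q module, 4 of 8 of the proximal P module and 7 of 10 of the distal P module were called higher. Not called were Ndufb3 (-0.16), Ndufa1 (-0.061), Ndufa4l2 (0.28) and 8 further genes with values from 0.33 to 0.70. The calls given by module use TMM and stand beside 13.4% of all genes called higher. Under scaling to sarcomere genes 0 genes of the set were called.

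Most genes of other respiratory complexes and of the citric acid cycle were below vehicle at 6d post-Col (10U), 4 of 4 tested in complex II, 9 of 9 in complex III, 11 of 13 in complex IV, 14 of 14 in complex V and 11 of 11 in the citric acid cycle. The median on the log2 scale was -0.98 for 4 genes of complex II (1 called lower by edgeR), -1.05 for 9 of complex III (6 called lower), -0.75 for 13 of complex IV (3 called lower), -0.86 for 14 of complex V (6 called lower) and -0.90 for 11 of the citric acid cycle (4 called lower). None of these lists held a gene called higher at 6d. The 10 complex I assembly factors measured, which build the complex but are not part of it, had a median of -0.48. Of these, 2 were called lower, Ecsit and Acad9, and 1 higher, Ndufaf2, and Ecsit fell from 103 ± 25.3 CPM (SD, n = 3) to 41.9 ± 6.93 CPM (SD, n = 3, log2 fold change -1.30, edgeR adjusted p = 0.00961). Ndufaf2, a chaperone of late assembly, rose from 8.96 ± 1.86 CPM (SD, n = 3) to 14.5 ± 0.694 CPM (SD, n = 3, log2 fold change 0.70, edgeR adjusted p = 0.0408). The 75 tested genes of the mitochondrial ribosome had a median of -0.37 (14 called lower), and 12 genes of protein import and membrane -0.17 (3 called lower). All these counts at 6d stand beside 13.3% of all genes called lower and 14% called higher. At 12d against 6d, 4 of 4 genes of complex II, 7 of 9 of complex III, 6 of 13 of complex IV, 10 of 14 of complex V and 5 of 11 of the citric acid cycle were called higher. In that comparison 2 genes of complex IV were called lower, and of all genes 13.4% were called higher and 13% lower.

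Known regulators of these genes were read from a list of 9. Esrra, an estrogen-related receptor, was the 1 regulator called at 6d, with 55.2 ± 12.9 CPM (SD, n = 3) against 119 ± 33.7 CPM (SD, n = 3) in the vehicle group (log2 fold change -1.10, edgeR adjusted p = 0.0248), and it rose again at 12d (log2 fold change 1.10, edgeR adjusted p = 0.0249). Tfam, which packages mitochondrial DNA, was called higher at 12d than at 6d (log2 fold change 0.43, edgeR adjusted p = 0.0341) and had -0.37 at 6d against vehicle (edgeR adjusted p = 0.123). Yy1 was the third regulator called higher at 12d than at 6d. Of all genes 13.3% were called lower and 14% higher at 6d, and 13.4% were called higher at 12d against 6d. These calls use TMM. Under scaling to sarcomere genes 0% of all genes were called higher at 12d against 6d. Ppargc1a, the coactivator known as PGC-1 alpha, had -0.26 at 6d (edgeR adjusted p = 0.581), and Nrf1 had -0.30 (edgeR adjusted p = 0.199). Across the 31 libraries, Pearson's r of log2 CPM with the mean of the 34 subunit genes was 0.93 for Esrra and 0.29 for Ppargc1a. These libraries share the differences in tissue makeup described here, and r describes them without a test.

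**Figure D4:**
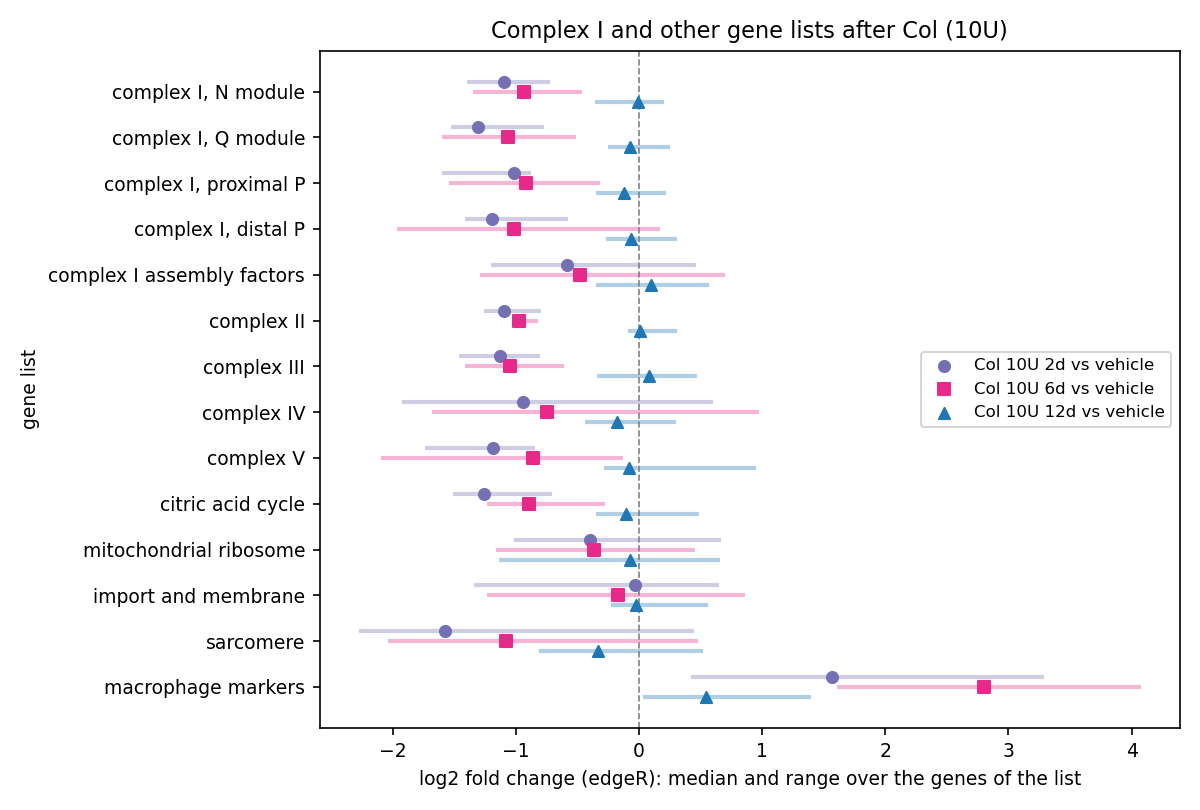
Median (symbols) and range (lines) of log2 fold changes by edgeR over the genes of 14 lists in the 3 groups given 10U Col, each against vehicle. The 4 complex I modules lie between -1.31 and -0.92 at 2d and 6d and near 0 at 12d, complexes II to V and the citric acid cycle lie in a similar range, sarcomere genes are at -1.57 and -1.08, and macrophage markers are on the other side of 0. These medians use TMM, and those of the 36 genes turn to 0.39 at 2d and 0.20 at 6d under scaling to sarcomere genes.

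Sarcomere genes moved in the direction of the complex I genes after 10U Col, and markers of other cells moved in both directions. The 22 sarcomere genes, which mark muscle fibres, were also lower, at a median of -1.57 on the log2 scale at 2d (4 called lower) and -1.08 at 6d (7 called lower). Of all genes 1.08% were called lower at 2d and 13.3% at 6d. The summed level of the sarcomere genes was 53434 to 81998 CPM at 2d and 59906 to 94389 CPM at 6d, against 132454 to 197801 CPM in the vehicle group, and 0 of the 22 genes were at 0. Of 10 macrophage markers 10 were called higher at 6d, summing to 1795 to 3653 CPM against 168 to 534 CPM in the vehicle group, and 4 of 5 markers of regenerating fibres were called higher. Of 7 fibroblast markers 2 were called higher, and of 8 neutrophil markers tested 5 were called lower. Of all genes 14% were called higher at 6d. Of 8 adipocyte markers 4 were called lower at 6d, and salivary gland markers summed to 1.02 to 2.96 CPM against 30.1 to 122554 CPM in the vehicle group. When libraries were scaled to the sarcomere genes in place of TMM, the direction turned. The median of the 36 genes was then 0.39 at 2d, with 8 called higher and 0 lower, beside 77.5% of all genes called higher. At 6d it was 0.20, with 3 called higher and 0 lower, beside 63.4% of all genes called higher. At 12d against 6d it was 0.27 with 0 called, beside 0% of all genes called higher and 0.0209% called lower. This scaling moved the median of all genes about as far. It went from 0.022 to 1.59 at 2d, from 0.0056 to 1.15 at 6d and from 0.0025 to -0.60 at 12d against 6d. At 2d and 6d the median of the 36 genes stayed below that of all genes, and at 12d against 6d it stayed above. The fall of the complex I genes was thus measured on the TMM scale and not relative to sarcomere genes. What part the muscle content has in this fall was not tested. Under the same scaling Ndufa4l2 was called higher at 2d, as were 77.5% of all genes (log2 fold change 1.72, next to a median of 1.59 over all genes, edgeR adjusted p = 0.00314), and had 0.76 at 6d (edgeR adjusted p = 0.0595).

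**Figure D5:**
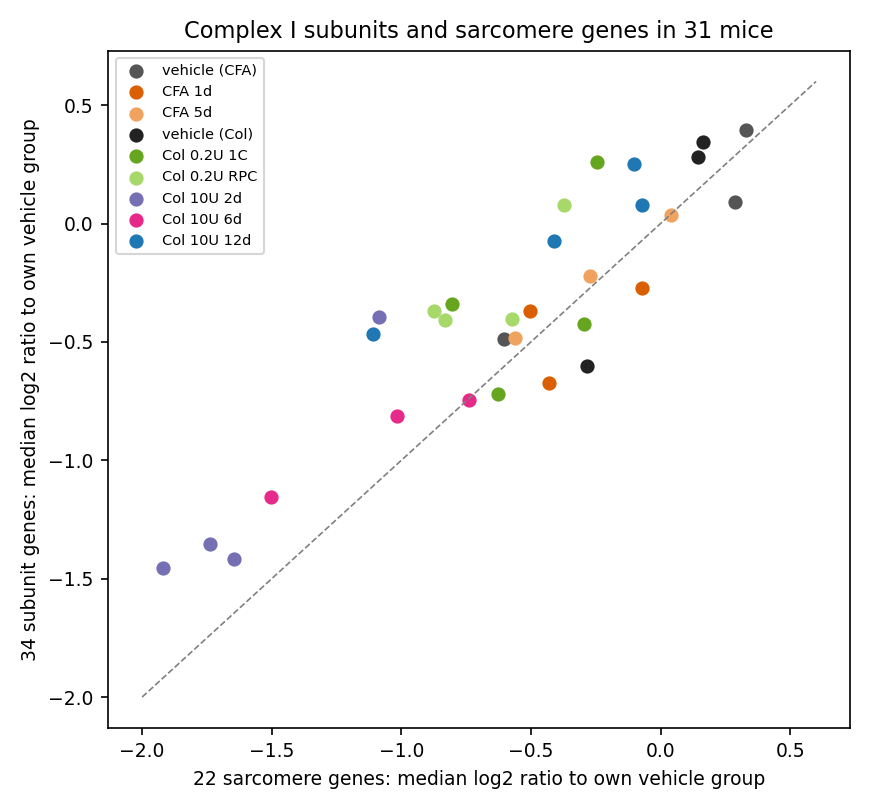
Median log2 ratio of 34 complex I subunit genes against that of 22 sarcomere genes, both to the mean of the own vehicle group, in 31 mice, with the line of equal ratios dashed. Replicates 1, 2 and 3 at 2d post-Col (10U) are the lowest on both axes, at -1.92 to -1.65 for sarcomere genes and -1.45 to -1.36 for subunit genes, and replicate 4 is at -1.09 and -0.40.

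Across the 31 libraries the genes of the set varied together. Pearson's r of log2 CPM between 1 gene and the mean of the other subunits had a median of 0.96 over the 34 subunit genes, with a highest value of 0.995. The lowest was 0.62, for Ndufb3, followed by 0.76 for Ndufa1. Ndufa4l2 had 0.11. The same measure was 0.91 for the sarcomere score and -0.73 for the macrophage score. These values describe 31 libraries that share groups, depth and makeup of tissue, and no test was made on them.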

How the data were processed

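RNA was sequenced from MM with a stranded mRNA library kit as 50-base single reads. The authors aligned reads to mm9 with TopHat 2, and the deposited values are whole-number counts of reads per gene symbol, not normalized. HTSeq is named in the submitters' processing notes, with no setting given for single libraries. Between 34.58 and 47.92% of the entries in a file were alignments that are not unique, and these were not counted on genes. Every library's 5 summary lines were kept out of library sizes and tests.

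Each group was compared with its own vehicle group by edgeR 4.0.16 (quasi-likelihood test, TMM) in R 4.3.3, over genes with a count of at least 10 in at least 3 of the compared libraries. Adjusted p under 0.05 was the threshold, and a stricter count also asked for a fold change over 2 and over 1 RPKM. Log2 ratios of single mice used CPM plus 0.5. Gene models of mm9 were found for 21627 symbols by symbol and 52 by synonym, and 930 had none. Uniqueness was searched with BLAST 2.17.0.

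The 36 genes and all gene lists were chosen with earlier results of these data known. By rule, values per mouse were given in each comparison with vehicle for the 3 called genes with the largest rise and the 3 with the largest fall, or with none called for the gene with the smallest p. They were also given for the 7 core subunits in the comparison with the most calls and for Ndufa4 and Ndufa4l2. Values of 1 gene are not reported here by name. Alternatives were DESeq2 1.42.0, its size factors in edgeR, scaling to 22 sarcomere genes, no filter on low counts, 1 fit shared by 31 libraries, pooled vehicle groups, a replicate block and leaving out each mouse in turn. The median over genes without an opposite exon was added after seeing the data. Replicate numbers were checked by the correlation of same-numbered mice in their deviations from the group means. It was over 0.1 in all 3 pairs in 1 comparison, that of both vehicle groups (0.107 to 0.629), and in none of the others, and the labels name no shared animal or day. Of 465 pairs of libraries 0 were identical.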

Additional observations from a re-analysis of the deposited data

Results flagged for a closer look

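In groups of 4 mice, 52 tests for a single mouse far from the other 3 were made with Dixon's ratio. They did not cover all 36 genes. Chance alone gives about 1 in 20 such groups for 1 gene. The genes varied together (median r 0.96), so results for several genes in 1 mouse are not independent and cannot be set against this rate. All 14 results came from 2 mice. Replicate 4 at 2d post-Col (10U) was far above the other 3 mice of its group in 10 of the genes tested. Its values were 15.94 CPM for Ndufb4, 69.01 CPM for Ndufc1, 73.21 CPM for Ndufs3 and 102.6 CPM for Ndufb2. They were 175.9 CPM for Ndufa13, 217.9 CPM for Ndufs7, 314 CPM for Ndufv2 and 321.9 CPM for Ndufv1. Ndufa4 was at 408.6 CPM and Ndufs1 at 421.6 CPM in this mouse. Its summed sarcomere level was the highest of its group as well, 81998 CPM. Replicate 1 of the RPC group was far above the other 3 mice in 4 genes, with 208.1 CPM for Ndufs8, 250.2 CPM for Ndufa13, 319.9 CPM for Ndufs7 and 376.4 CPM for Ndufv2.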

How the results depend on the processing

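Medians below are log2 fold changes over the 36 genes, and counts are genes of the set that were called. Scaling to sarcomere genes moved the median to -0.082 at 1d and 0.039 at 5d post-CFA, 0.21 in the 1C group, 0.39 in the RPC group, 0.39 at 2d, 0.20 at 6d and 0.38 at 12d post-Col (10U), -0.22 at 6d against 2d, 0.27 at 12d against 6d and 0.012 between both vehicle groups. The counts were then 8 higher at 2d, 0 lower and 3 higher at 6d, and 0 higher at 12d against 6d, beside 77.5% of all genes called higher at 2d and 63.4% at 6d. At 6d 2.11% of all genes were called lower, and at 12d against 6d 0% were called higher. Single genes turned sign under it: Ndufa4 to 0.026 at 1d and 0.029 at 5d post-CFA, 0.056 in the 1C group, 0.28 in the RPC group and 0.20 at 2d. Ndufa4l2 turned to 0.10 at 1d and 0.12 at 5d post-CFA, 0.20 in the 1C group, 0.76 at 6d and 0.38 at 12d. Ndufv3 turned to 0.31 at 2d and 0.090 at 12d, and Ndufa13 to 0.12 in the 1C group. The cause was not tested.

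At 2d the count lower was 27 by DESeq2, 35 in the fit shared by 31 libraries and 34 with pooled vehicle groups, beside 11.4, 16.4 and 16.7% of all genes called lower. From 2d to 6d, 2 were higher by DESeq2 and 2 in the shared fit, beside 8.84 and 6.22% of all genes. Ndufa4 at 12d was -0.0075 by DESeq2, -0.0075 with its size factors, -0.042 in the shared fit and -0.018 with pooled vehicle groups. The cause was not tested.

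In the comparison of both vehicle groups, where same-numbered mice deviated together in all 3 pairs, the median was -0.086 with the replicate block and 0 genes were called. In the other comparisons they did not in all pairs, and the mice share only a number. With the replicate block the counts there were 35 lower at 2d, 0 lower at 6d and 3 higher from 2d to 6d, beside 15.2, 4.43 and 7.18% of all genes, and Ndufa4l2 at 12d was 0.00023.

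Leaving out 1 mouse moved the median from -0.64 to -0.28 at 1d and -0.34 to 0.024 at 5d post-CFA, -0.58 to -0.13 in the 1C group, -0.50 to -0.094 in the RPC group and -0.32 to 0.13 at 12d. It gave 0 to 35 lower at 2d and 0 to 32 lower at 6d. The shares of all genes called lower in these fits were 0.014 to 18.4% and 2.44 to 20%. At 6d against 2d it gave 0 to 21 higher and 0 to 1 lower, beside 0.713 to 14% and 0.168 to 14.8% of all genes. At 12d against 6d it gave 2 to 31 higher, beside 0.722 to 25% of all genes. Ndufa4l2 ran from -0.50 to 0.050 at 1d and -0.31 to 0.16 at 5d post-CFA, from -0.090 to 0.32 at 2d and from -0.18 to 0.11 at 12d, and Ndufa4 at 12d from -0.30 to 0.26.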
